A study of Mus musculus with 6 samples.

Results

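Kinesins are motor proteins that step along microtubules by hydrolysing ATP. One set of them builds and moves the mitotic spindle and completes cell division, and the genes of that set are transcribed mainly in G2 and M phase. The others carry vesicles, organelles and ciliary cargo in cells that need not divide. The proximal end of the mouse incisor, a tooth that grows throughout life, holds stem cells, dividing transit-amplifying cells and the cells that differentiate from them, so both sets have work there.

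The members described here are the genes of the deposited count table whose symbol is Kif or Kifc followed by a number and, where present, a letter from a to c. There are 40 such genes among 25703 in the table. Of these, 12 are mitotic kinesins (Kif2c, Kif4, Kif11, Kif14, Kif15, Kif18a, Kif18b, Kif20a, Kif20b, Kif22, Kif23 and Kifc1) and 28 are other kinesins. The pattern leaves out Cenpe, the kinesin of the kinetochore, and non-motor partners such as Kifap3 and Kif1bp, which are treated below as partner genes. All 40 are protein coding, and for all 40 the deposited start, and the stop minus 1, equal the gene bounds of GENCODE release M21 (mm10).

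RNA from the proximal incisor of C57BL/6 mice aged 6 weeks was sequenced in 6 libraries. Arid1a cKO mice (3 libraries) carried Gli1-CreER, a tamoxifen-inducible Cre recombinase driven by Gli1, with floxed alleles of Arid1a, whose protein is the large ARID-domain subunit of BAF, the mammalian SWI/SNF remodeller of chromatin. Control mice (3 libraries) had Arid1a fl/fl without the CreER allele, and the labels give the same course of tamoxifen for all samples, 1.5 mg per 10 g of body weight daily for 3 days at 1 month of age. The title of the series directs the comparison to cell cycle exit of transit-amplifying cells. The estimated counts summed to between 29922013 and 37908478 in Arid1a cKO libraries and between 27300932 and 32677240 in control libraries. Whether each library is a different animal is not stated, and p-values therefore measure only how far these samples scatter, part of which may be technical. The labels do not say which libraries might form pairs, so every test treats the libraries as unpaired. Arid1a itself had 136, 139 and 145 CPM (counts scaled to the TMM-adjusted size of the library) in Arid1a cKO replicates 1 to 3, against 222, 249 and 223 CPM in control replicates 1 to 3. The groups were far apart, and Arid1a fell 1.65-fold (log2 fold change -0.72, SE 0.0677, edgeR adjusted p = 0.00802). Whole tissue was sequenced, including cells outside the Gli1 lineage, and in such bulk samples fewer cells of a type and less RNA per cell cannot be told apart. Arid1a cKO replicates 1 and 2 differed from each other (chi-square of their counts per degree of freedom 110) more than Arid1a cKO replicate 1 differed from any control library (50.6 to 88.4). Arid1a cKO replicate 2 also had the highest sum of ribosomal RNA genes, 4649 CPM, against 1551 and 2248 CPM in Arid1a cKO replicates 1 and 3 and 1352 to 2001 CPM in control.

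Of the 12 mitotic kinesins, 7 rose, 0 fell and 5 did not pass an adjusted p of 0.05 in the edgeR quasi-likelihood test fitted over all 19613 genes tested, and all 12 had a positive log2 fold change. Over all genes tested 3.96% were called, 1.5% higher and 2.46% lower. The log2 fold changes of the 12 ran from 0.25 to 0.60 with a median of 0.52, against a median of 0.0043 over all genes. The 3 Arid1a cKO libraries lay above all 3 control libraries in 10 of the 12, which is the case for 13.8% of all genes tested. At an unadjusted p under 0.05 edgeR had 11 higher and 0 lower, where all genes gave 10% higher and 11.9% lower. DESeq2 called 9 higher and 0 lower, against 4.47% higher and 6.01% lower of the 18185 genes to which it gave an adjusted p. Markers of other cell types differed between the same libraries: 8 of 10 tested nerve markers lay apart and higher in Arid1a cKO. Of 18 epithelial markers Epcam and Cldn4 rose, and 13 had a positive log2 fold change and 5 a negative one. Of 14 mesenchymal markers Pdgfrb fell, and 8 had a negative log2 fold change and 6 a positive one. The part of nerve, epithelium and mesenchyme in the kinesin differences was not tested.

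**Figure D1:**
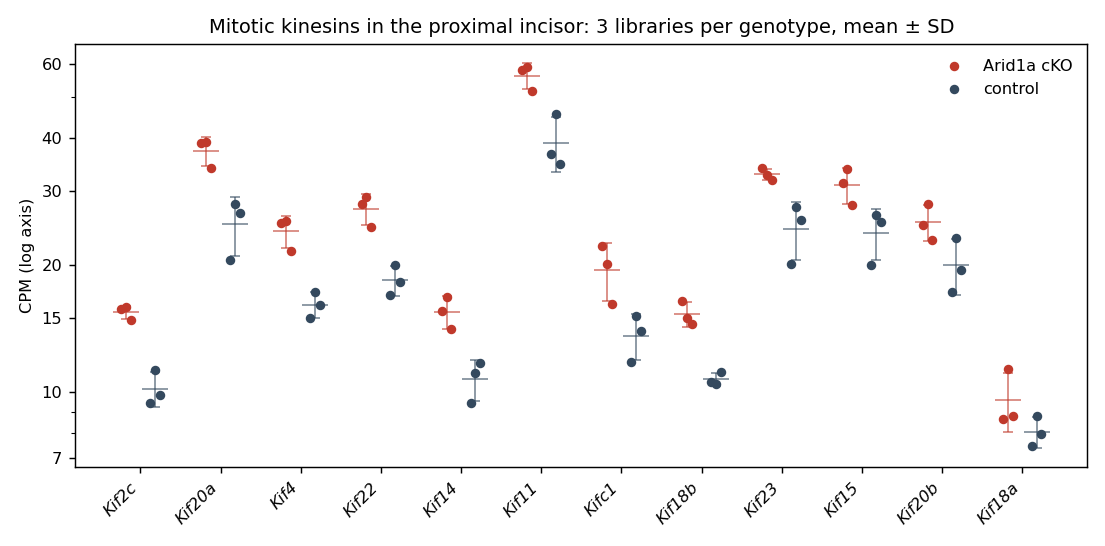
Level of each mitotic kinesin in CPM on a log axis, with 1 point per library and bars for the mean and SD of 3 libraries; Arid1a cKO is drawn left of control. The groups are apart in 10 of the 12 genes and overlap in Kif20b and Kif18a.

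The 4 mitotic kinesins with the lowest p-values were Kif2c, Kif4, Kif22 and Kif18b. Kif2c, a kinesin-13 that removes tubulin from microtubule ends at the centromere (chromosome 4, 117159639 to 117182639, minus strand), had 15.7, 15.9 and 14.9 CPM in Arid1a cKO replicates 1 to 3, against 9.46, 11.3 and 9.86 CPM in control replicates 1 to 3. All Arid1a cKO values lay above all control values, and the gene rose 1.52-fold (log2 fold change 0.60, SE 0.0988, edgeR adjusted p = 0.0215). Kif4, a chromokinesin of chromosome arms and the spindle midzone (chromosome X, 100625737 to 100727214, plus strand), had 25.1, 25.4 and 21.6 CPM in Arid1a cKO and 14.98, 17.3 and 16.1 CPM in control. It rose 1.49-fold with no overlap (log2 fold change 0.58, SE 0.095, edgeR adjusted p = 0.0217). Kif4 overlaps Pdzd11 on the opposite strand, and 13.8% of its sequence words of 75 bases, the read length, also occur there. Pdzd11 had a log2 fold change of -0.12 (edgeR adjusted p = 0.395). Kif22, a DNA-binding motor that pushes chromosome arms towards the spindle equator (chromosome 7, 127027729 to 127042471, minus strand), had 28.0, 29.0 and 24.6 CPM in Arid1a cKO and 16.99, 20.0 and 18.2 CPM in control. It rose 1.48-fold (log2 fold change 0.56, SE 0.0947, edgeR adjusted p = 0.0234), again without overlap.

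Kif18b, a kinesin-8 that shortens astral microtubules (chromosome 11, 102905529 to 102925124, minus strand), had 16.5, 14.97 and 14.5 CPM in Arid1a cKO, against 10.6, 10.5 and 11.2 CPM in control. The control values spanned less than 1 CPM, and the gene rose 1.42-fold (log2 fold change 0.51, SE 0.0905, edgeR adjusted p = 0.0274). Its relative Kif18a, which damps chromosome oscillations at the metaphase plate, was the mitotic kinesin with the smallest difference. It had 8.66, 11.4 and 8.77 CPM in Arid1a cKO and 7.46, 8.81 and 7.96 CPM in control. Those groups overlapped, and the log2 fold change of 0.25 (SE 0.142) did not pass (edgeR adjusted p = 0.344).

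The motors that set up the bipolar spindle split between called and not called. Kif11, the kinesin-5 that slides antiparallel microtubules apart (chromosome 19, 37376403 to 37421859, plus strand), was the mitotic kinesin with the most counts. It had 57.9, 59.0 and 51.6 CPM in Arid1a cKO and 36.6, 45.7 and 34.7 CPM in control. The groups did not overlap, and it rose 1.44-fold (log2 fold change 0.53, SE 0.111, edgeR adjusted p = 0.0451). Kif15, a kinesin-12 that can maintain the bipolar spindle together with Kif11, had 31.3, 33.8 and 27.8 CPM in Arid1a cKO and 20.1, 26.3 and 25.3 CPM in control. The groups were apart, and its log2 fold change of 0.38 (SE 0.119) did not pass (edgeR adjusted p = 0.118). The groups of Kifc1 were apart as well. Kifc1, a minus-end motor that gathers spindle poles, had 22.2, 20.1 and 16.2 CPM in Arid1a cKO and 11.8, 15.2 and 13.9 CPM in control, with a log2 fold change of 0.52 (SE 0.142, edgeR adjusted p = 0.0845).

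The kinesins of the midzone and of cytokinesis showed the same division. Kif20a, a kinesin-6 that brings the chromosomal passenger complex to the midzone (chromosome 18, 34624613 to 34633277, plus strand), had 38.9, 39.1 and 33.9 CPM in Arid1a cKO and 20.5, 27.9 and 26.6 CPM in control. It rose 1.49-fold with no overlap (log2 fold change 0.58, SE 0.122, edgeR adjusted p = 0.0457). Kif20a overlaps Cdc23 on the opposite strand and shares 23.3% of its words with it, so its count is uncertain; Cdc23 had a log2 fold change of 0.087 (edgeR adjusted p = 0.375). Kif14, which recruits citron kinase to the midbody (chromosome 1, 136466343 to 136531511, plus strand), had 15.6, 16.8 and 14.1 CPM in Arid1a cKO and 9.43, 11.1 and 11.7 CPM in control. It rose 1.44-fold, just past the threshold (log2 fold change 0.53, SE 0.115, edgeR adjusted p = 0.0486). Kif23, the motor subunit of the centralspindlin complex, had 33.9, 32.6 and 31.9 CPM in Arid1a cKO, against 20.1, 27.5 and 25.5 CPM in control. These groups were apart too, with a log2 fold change of 0.43 (SE 0.113) that did not pass (edgeR adjusted p = 0.0785). Kif20b, a late-cytokinesis kinesin-6, had 24.9, 27.9 and 23.0 CPM in Arid1a cKO and 17.3, 23.2 and 19.5 CPM in control, which overlap (log2 fold change 0.34, edgeR adjusted p = 0.165).

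The number of called mitotic kinesins depended on every library. It was 3, 0 and 2 without Arid1a cKO replicate 1, 2 or 3 and 0, 4 and 0 without control replicate 1, 2 or 3, with 11, 9, 11, 10, 11 and 10 members higher at an unadjusted p under 0.05 in the same order. Over all genes the calls numbered 777 with all 6 libraries and 532, 433, 165, 160, 352 and 187 in these fits, in that order. All 12 kept a positive log2 fold change in each of these fits. Kif4 and Kif22 were lost without Arid1a cKO replicate 2 or control replicate 1 or 3 (edgeR adjusted p of up to 0.0809 and 0.0835), and Kif2c without these or Arid1a cKO replicate 3 (up to 0.0806). Kif11 passed only without control replicate 2 (0.0266 to 0.15 over the 6 fits). Kif14 (up to 0.126), Kif18b (up to 0.0918) and Kif20a (up to 0.103) were lost without each library in turn, and Kif14 also with no filter on low counts and with limma-voom.

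Mitotic kinesins also varied together within a genotype. Control replicate 1 was the lowest control in 10 of the 12 and control replicate 2 the highest in 10, while Arid1a cKO replicate 2 was the highest of its group in 9 and Arid1a cKO replicate 3 the lowest in 11. Their summed level was 319, 326 and 283 CPM in Arid1a cKO replicates 1 to 3, against 195, 245 and 221 CPM in control replicates 1 to 3. The gap between the closest libraries of the groups, Arid1a cKO replicate 3 and control replicate 2, was thus smaller than the gap between control replicates 1 and 2.

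Promoter sequences were set beside these results because genes of G2 and M phase are known to share short promoter elements. The cell cycle genes homology region (CHR), with the letters TTTGAA, binds the DREAM complex in resting cells and B-MYB and FOXM1 complexes in dividing cells, and the CCAAT box binds NF-Y. Of the 40 kinesins, 31 matched an entry by symbol in the RefSeq promoter table (GRCm38.p6, 250 bases before to 50 after the start). The letters TTTGAA, searched on both strands, were in 10 of the 11 mitotic kinesin promoters found, in 3 of 20 promoters of other kinesins (Kif26b, Kif27 and Kifc5b) and in 12.6% of 12848 protein-coding genes of the count table. Within 30 bases of the start, a window chosen after the matches were seen, they were in 8 of the 11, in 2 of the 20 and in 1.94% of the 12848. CCAAT was in 7 of the 11, 8 of the 20 and 38.3% of the 12848, and both CHR and CCAAT were in 7, 3 and 5.31%. An E2F-type match (TTCCCGC or TTGGCGC) was in 2 of the 11, 2 of the 20 and 11.2%; the letters TTGG of the second form are shared with a reverse CCAAT, so those matches can overlap. Over all 27025 promoters, 1 per gene and not only of coding genes in the count table, TTTGAA was in 18.1%. It was within 30 bases of the start in 3.15%. CCAAT was in 37.9% of these promoters, both CHR and CCAAT in 7.12%, and an E2F-type match in 6.93%. Kif18a, with the smallest difference among the mitotic kinesins, was the 1 mitotic promoter without TTTGAA from 250 bases before to 50 after the start. The promoters of Kif15, Kif20b, Kif23 and Kifc1 hold these letters, and those genes did not pass the edgeR test either. A relation between the letters and the fold changes was not tested. In 4 of the 31 genes the RefSeq start lay more than 500 bases from the GENCODE 5′ end: it was 3867 bases inside Kif2c and 1505 bases inside Kif14, so their windows may not be the main promoter, and Kif17 and Kif27 were the other two. A match is a description of letters and no evidence of binding.

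The following stretches run from 110 bases before the RefSeq start to 50 bases after it, 5′ to 3′ on the strand of the gene, with matches to the CHR or CCAAT letters on either strand in capitals (reversed, CHR reads TTCAAA and CCAAT reads ATTGG). Kif11 (chr19:37376272-37376431, plus), Kif22 (chr7:127042371-127042530, minus), Kif18b (chr11:102925075-102925234, minus) and Kif4 (chrX:100625955-100626114, plus) are called mitotic kinesins with CHR and CCAAT letters near the start.
Kif11: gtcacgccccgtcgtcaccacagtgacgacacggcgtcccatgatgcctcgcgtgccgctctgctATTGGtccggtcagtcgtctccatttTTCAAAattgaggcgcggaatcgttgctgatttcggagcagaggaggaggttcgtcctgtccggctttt
Kif22: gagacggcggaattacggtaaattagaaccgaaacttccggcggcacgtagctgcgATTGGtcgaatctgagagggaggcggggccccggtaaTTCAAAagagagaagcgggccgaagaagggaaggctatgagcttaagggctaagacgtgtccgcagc
Kif18b: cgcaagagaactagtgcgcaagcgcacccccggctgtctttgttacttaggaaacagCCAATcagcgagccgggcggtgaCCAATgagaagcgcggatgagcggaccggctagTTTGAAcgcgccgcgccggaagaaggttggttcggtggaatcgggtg
Kif4: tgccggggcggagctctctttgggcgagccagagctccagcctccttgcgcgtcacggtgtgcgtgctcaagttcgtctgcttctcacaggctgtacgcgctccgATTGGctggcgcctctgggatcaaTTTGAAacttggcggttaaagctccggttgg

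Kif26a (chr12:112146098-112146257, plus) and Kif21a (chr15:91049902-91050061, minus), which fell in Arid1a cKO, hold none of the letters in this stretch. Kif26b, whose values were also lower in Arid1a cKO without passing the test, has TTTGAA 9 bases and a reversed CCAAT 73 bases before its start.
Kif26a: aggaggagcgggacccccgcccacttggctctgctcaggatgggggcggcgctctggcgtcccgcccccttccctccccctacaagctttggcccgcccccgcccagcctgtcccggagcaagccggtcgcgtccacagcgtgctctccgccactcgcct
Kif21a: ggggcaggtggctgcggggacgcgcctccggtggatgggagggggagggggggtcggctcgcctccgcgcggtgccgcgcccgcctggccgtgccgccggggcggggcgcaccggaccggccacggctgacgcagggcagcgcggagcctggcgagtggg

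Among the other kinesins more values lay lower than higher in Arid1a cKO. Of 27 tested, 3 fell, 1 rose and 23 did not pass, where 2.46% of all genes tested were called lower and 1.5% higher. The median log2 fold change of the 27 was -0.11. The 28th, Kif28, was not tested because its counts were too low (0.178 to 0.297 CPM in Arid1a cKO and 0.287 to 0.548 CPM in control). Groups were apart with Arid1a cKO lower in 12 of the 27 and higher in 2, against 15.3% and 13.8% of all genes tested. DESeq2 called 6 lower and 1 higher, against 6.01% lower and 4.47% higher of all genes to which it gave an adjusted p. As a share of all kinesin counts, which does not depend on how libraries are scaled, the mitotic members made up 17.1%, 16.5% and 14.9% in Arid1a cKO replicates 1 to 3 and 8.75%, 11.1% and 10.5% in control replicates 1 to 3. The means were 16.1% ± 1.15 in Arid1a cKO and 10.1% ± 1.22 in control (SD, n = 3 each). This share also moves with the other kinesins, whose sums had a mean of 1608 CPM in Arid1a cKO and 1958 CPM in control. Kif26b alone made up 418 and 630 CPM of these means.

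**Figure D2:**
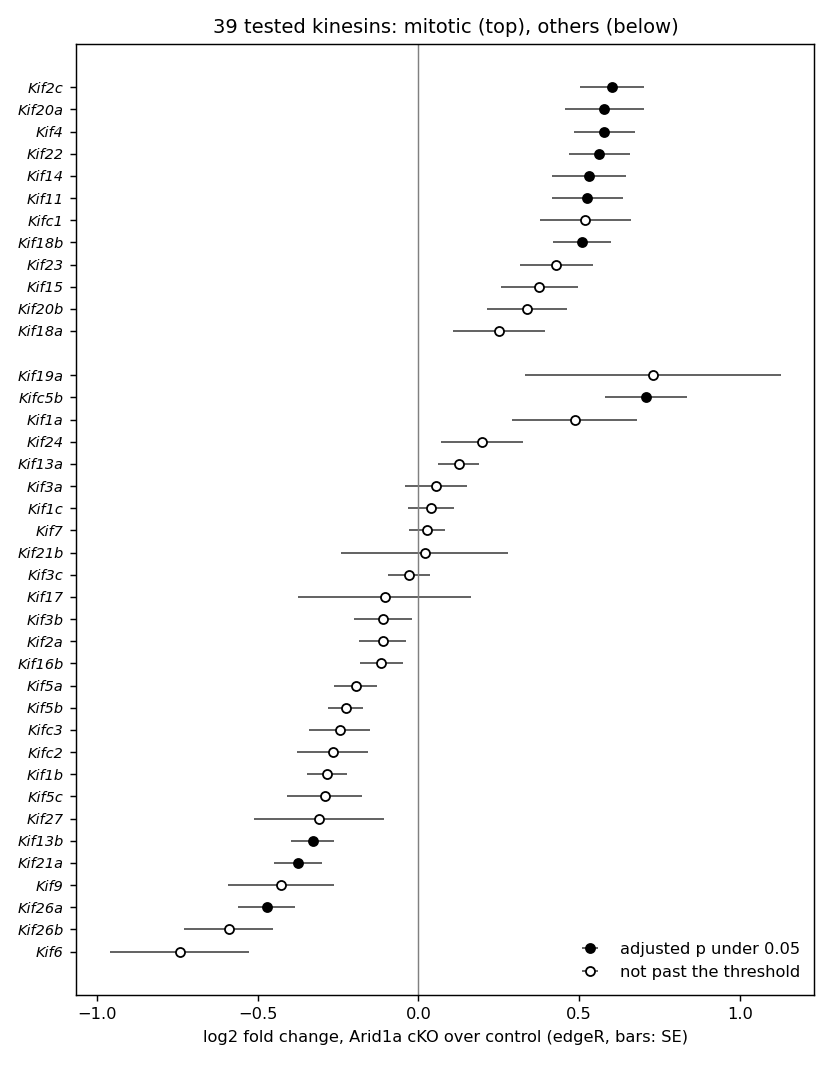
Log2 fold change of each of the 39 tested kinesins, Arid1a cKO over control, from edgeR with SE bars; filled points pass an adjusted p of 0.05. The 12 mitotic kinesins at the top all lie right of 0, and among the 27 others 18 lie left of it.

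The 1 other kinesin that rose is a close copy of a mitotic one. Kifc5b, a kinesin-14 (chromosome 17, 26917091 to 26932583, plus strand), had 7.39, 8.36 and 7.12 CPM in Arid1a cKO and 4.88, 4.78 and 4.35 CPM in control. It rose 1.63-fold without overlap (log2 fold change 0.71, SE 0.128, edgeR adjusted p = 0.0294). Of its 75-base words 24.5% also occur in Kifc1, which lies elsewhere on the same chromosome, so reads could be divided between them and both counts are uncertain. With both genes counted as 1, a choice made after seeing the data, the pair had 29.6, 28.5 and 23.3 CPM in Arid1a cKO and 16.7, 19.9 and 18.3 CPM in control. The pair then passed (1.48-fold, log2 fold change 0.57, SE 0.113, edgeR adjusted p = 0.0371), where Kifc1 alone had not. The Kifc5b call held without Arid1a cKO replicate 1 (edgeR adjusted p = 0.0482) and was lost without each other library (up to 0.0939). The promoters of Kifc1 (chr17:33890584-33890743, minus) and Kifc5b (chr17:26916981-26917140, plus) share a longest identical run of 68 bases, and both hold the CHR letters after 2 reversed CCAAT boxes.
Kifc1: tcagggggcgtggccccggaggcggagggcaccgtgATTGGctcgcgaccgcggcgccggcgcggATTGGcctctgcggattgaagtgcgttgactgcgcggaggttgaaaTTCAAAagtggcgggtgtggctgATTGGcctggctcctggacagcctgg
Kifc5b: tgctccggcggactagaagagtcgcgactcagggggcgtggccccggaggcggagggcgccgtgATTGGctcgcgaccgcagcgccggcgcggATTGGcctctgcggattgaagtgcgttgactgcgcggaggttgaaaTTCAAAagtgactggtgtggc

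The kinesins that fell were Kif26a, Kif21a and Kif13b. Kif26a, a kinesin-11 without motor activity that acts in growth factor signalling of enteric neurons (chromosome 12, 112146208 to 112181747, plus strand), had 118, 127 and 129 CPM in Arid1a cKO, against 154, 193 and 172 CPM in control. It fell 1.39-fold without overlap (log2 fold change -0.47, SE 0.0882, edgeR adjusted p = 0.0321). Kif21a, a kinesin-4 that slows microtubule growth at the cell cortex (chromosome 15, 90933276 to 91049948, minus strand), had 17.99, 19.8 and 19.1 CPM in Arid1a cKO and 25.3, 23.2 and 25.2 CPM in control. It fell 1.30-fold (log2 fold change -0.37, SE 0.0753, edgeR adjusted p = 0.0391). Kif13b, a kinesin-3 that carries membrane cargo (chromosome 14, 64647265 to 64809617, plus strand), had 45.3, 46.6 and 49.7 CPM in Arid1a cKO and 60.4, 55.7 and 61.8 CPM in control. It fell 1.26-fold (log2 fold change -0.33, SE 0.0667, edgeR adjusted p = 0.0396), and for neither gene did the groups overlap. Kif26a kept its call only without control replicate 1 (0.0439), with adjusted p of up to 0.101 otherwise, and the calls of Kif21a (up to 0.126) and Kif13b (up to 0.123) were lost without each library in turn. On the authors' normalized values the Kif13b call was lost at a pseudocount of 1 or 5 and the Kif21a call at a pseudocount of 5, and all 3 calls were lost with the dental epithelium markers as a covariate. The number of other kinesins called, in either direction, was 1, 1 and 0 without Arid1a cKO replicate 1, 2 or 3 and 1, 0 and 0 without control replicate 1, 2 or 3, with 8 to 11 lower and 1 or 2 higher at an unadjusted p under 0.05. With all 6 libraries, 11.9% of all genes tested were lower and 10% higher at that unadjusted edgeR p. Calls over all genes went from 777 with all 6 libraries to 532, 433, 165, 160, 352 and 187 in the 6 fits with 1 library left out, in the same order.

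Kif26b, the paralog of Kif26a with a role in kidney development and Wnt5a signalling, had the largest counts of the family. It had 360.1, 489 and 406 CPM in Arid1a cKO and 715, 623 and 551 CPM in control. The groups were apart and the log2 fold change was -0.59 (SE 0.138), which did not pass (edgeR adjusted p = 0.0578). It passed without Arid1a cKO replicate 2 (0.0493), in the fit with the dental epithelium markers as a covariate (0.04) and with DESeq2 (0.000407). Per kilobase of annotated exons Kif26b was also the highest kinesin in control, at 37.5 to 48.6 CPM per kb. It was followed there by Kif26a (22.2 to 27.9), Kif5b (23.7 to 25.1) and Kif1c (22.9 to 25.3), whose ranges overlap one another. In Arid1a cKO, Kif26b had 24.5 to 33.2 CPM per kb, a range that overlaps that of Kif1c (23.1 to 26.5). The highest mitotic kinesins were Kif20a, at 7.82 to 9.02 CPM per kb in Arid1a cKO and 4.73 to 6.43 in control, and Kif11, at 6.91 to 7.90 in Arid1a cKO and 4.65 to 6.12 in control. These ranges overlap between the 2 genes in each genotype.

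**Figure D3:**
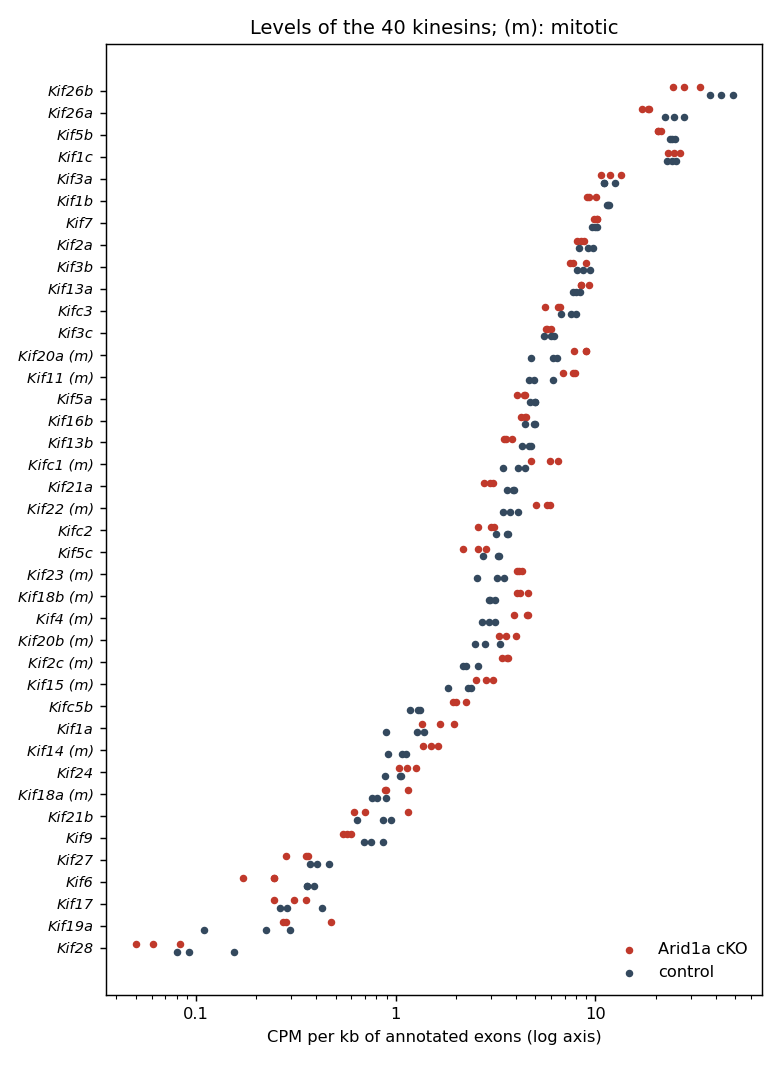
Level of the 40 kinesins per kilobase of annotated exons on a log axis, with 1 point per library, ordered by the control mean; (m) marks mitotic kinesins and Arid1a cKO points are drawn above control points. Kif26b leads in control at 37.5 to 48.6 CPM per kb, and Kif28 is lowest.

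The transport motors were mostly not called, and in several the genotypes were apart. Among kinesin-1 heavy chains, which carry organelles and RNA towards microtubule plus ends, 0 of 3 passed by edgeR. All 3 had an unadjusted edgeR p under 0.05 with lower values in Arid1a cKO, and DESeq2 called 1, Kif5b. Over all genes, 11.9% were lower at that unadjusted p and DESeq2 called 6.01% lower. Kif5b had 164, 163 and 169.7 CPM in Arid1a cKO and 200.2, 189.5 and 192 CPM in control. Its groups were apart, at a log2 fold change of -0.23 (SE 0.0552, edgeR adjusted p = 0.0635), and its DESeq2 adjusted p was 0.0105. Kif5a, a neuronal heavy chain, had 28.2, 31.0 and 30.5 CPM in Arid1a cKO and 34.8, 34.8 and 33.0 CPM in control (log2 fold change -0.19, edgeR adjusted p = 0.138). Kif5c had a log2 fold change of -0.29 (edgeR adjusted p = 0.201), and its groups overlapped.

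Of 6 kinesin-3 transport motors Kif13b was the 1 that passed by edgeR, and DESeq2 called 2 lower, Kif13b and Kif1b. Kif1b, which carries mitochondria and synaptic vesicle precursors, had 159, 163 and 178 CPM in Arid1a cKO and 200.2, 206 and 203 CPM in control. These groups were apart, and at a log2 fold change of -0.28 (SE 0.063) Kif1b missed the threshold narrowly by edgeR (adjusted p = 0.0507). Its DESeq2 adjusted p was 0.00329. Kif1c had 193, 168 and 180.3 CPM in Arid1a cKO and 184, 167 and 176 CPM in control, with overlapping groups (log2 fold change 0.039, edgeR adjusted p = 0.8). Kif13a (0.13, 0.302) and Kif16b (-0.11, 0.363) did not pass either. Kif1a, a motor mainly of neurons, had 18.3, 12.7 and 15.5 CPM in Arid1a cKO and 8.35, 11.9 and 12.96 CPM in control (log2 fold change 0.49, SE 0.195, edgeR adjusted p = 0.203). Of 14 nerve markers 13 were in the table, and their summed level was 245 to 332 CPM in Arid1a cKO and 117 to 221 CPM in control. All 10 tested had a positive log2 fold change, in 8 the groups were apart, and the synaptic vesicle protein gene Syt1 rose 4.62-fold (edgeR adjusted p = 0.0191). Over all genes tested 13.8% lay apart and higher in Arid1a cKO. The neurofilament markers Nefl and Nefm were at 0 in at least 1 library, and the part of nerve content in the Kif1a difference was not tested.

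**Figure D4:**
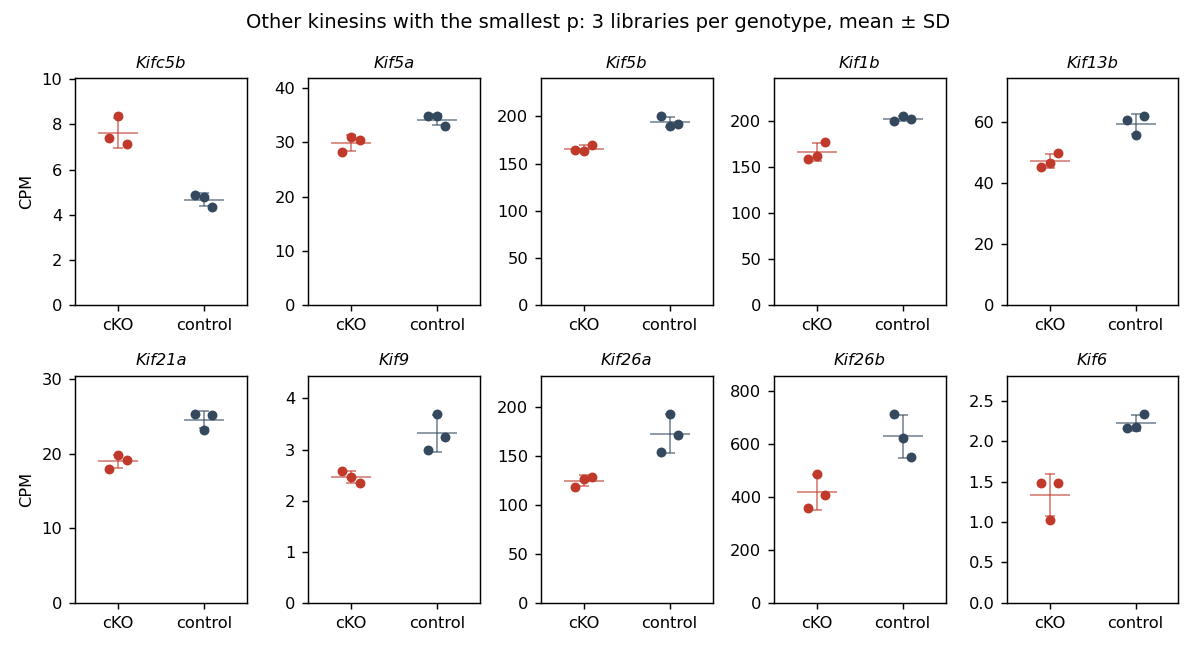
Level in CPM, on axes from 0, of the 10 other kinesins with the smallest p, with 1 point per library and bars for the mean and SD of 3 libraries. Kifc5b is higher in Arid1a cKO, the 9 others are lower, and in none of the 10 do the groups overlap.

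The kinesins of the primary cilium, through which Hedgehog signals are read, did not pass. Kif7, a kinesin-4 that organises the tip of the cilium and regulates Gli proteins, had 46.5, 46.8 and 45.2 CPM in Arid1a cKO and 43.9, 45.6 and 46.4 CPM in control. The groups overlapped, with a log2 fold change of 0.028 (SE 0.056, edgeR adjusted p = 0.814). The kinesin-2 subunits that drive transport towards the ciliary tip had log2 fold changes of 0.054 (Kif3a), -0.11 (Kif3b) and -0.029 (Kif3c), with edgeR adjusted p of 0.791, 0.516 and 0.84, and the homodimeric Kif17 had -0.11 (0.859). Of these 4 kinesin-2 genes 0 were called by edgeR or by DESeq2, and 0 had an unadjusted p under 0.05. Kif3c shares 34.4% of its words with 1110002L01Rik and Kif7 shares 14.4% with 9330171B17Rik, genes that overlap them on the opposite strand, so these counts are uncertain.

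Kinesins known from motile cilia had low counts. Kif6 had 1.48, 1.03 and 1.48 CPM in Arid1a cKO and 2.17, 2.17 and 2.34 CPM in control (log2 fold change -0.74, SE 0.217, edgeR adjusted p = 0.0999). Kif9 had 2.57, 2.46 and 2.34 CPM in Arid1a cKO and 3.00, 3.70 and 3.25 CPM in control (-0.43, SE 0.165, 0.185). Neither overlapped between genotypes and neither passed. Kif19a, at 1.11 to 1.94 CPM in Arid1a cKO and 0.446 to 1.196 CPM in control, had overlapping groups. Foxj1, the transcription factor that defines multiciliated cells, had 0.714 to 0.825 CPM in Arid1a cKO and 0.701 to 1.24 CPM in control. The 8 of 10 multiciliated cell markers in the table summed to 9.89 to 11.5 CPM in Arid1a cKO and 10.8 to 14.9 CPM in control, and Dnai1 and Mcidas were not among them.

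The remaining members gave no call. The depolymerase Kif2a (log2 fold change -0.11, edgeR adjusted p = 0.411), the centriolar kinesin-13 Kif24 (0.20, 0.4) and the minus-end motors Kifc2 (-0.27, 0.21) and Kifc3 (-0.24, 0.185) did not pass. Kif27 (-0.31, 0.409) and Kif21b (0.019, 0.977) did not either. Kif2a and Kif2c, both kinesin-13, had log2 fold changes of -0.11 and 0.60; a test of the difference between them was not made.

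**Figure D5:**
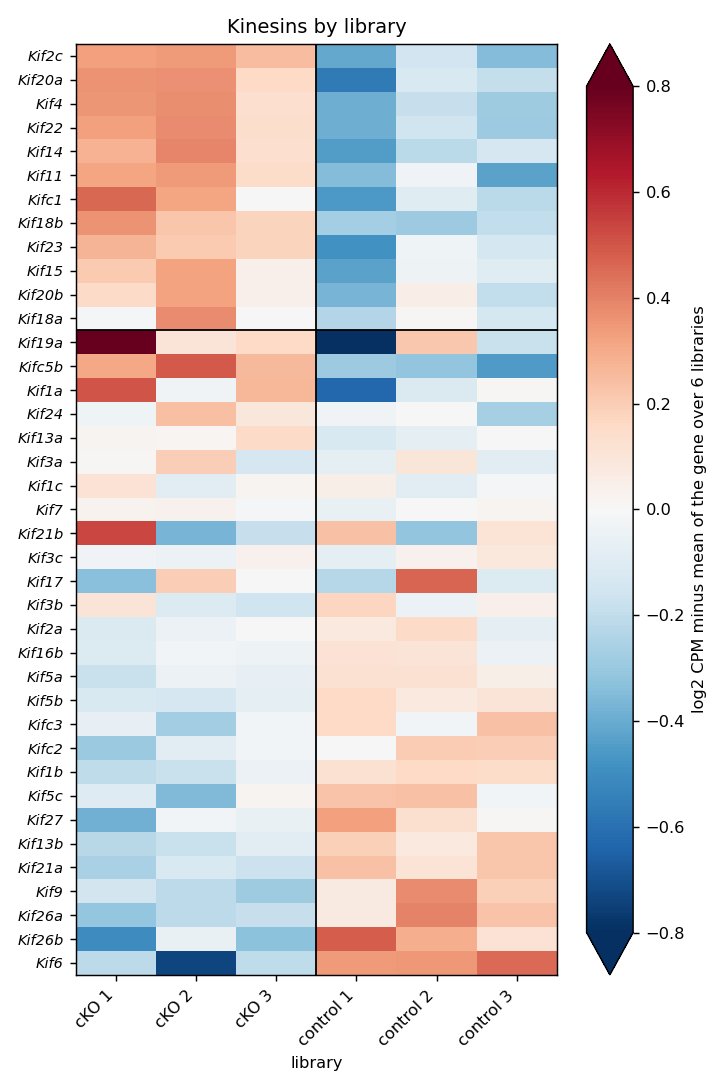
Each tested kinesin in each library as log2 CPM minus the mean of the gene over the 6 libraries, with Arid1a cKO left of control and mitotic kinesins above the horizontal line. The median of the 12 mitotic kinesins is 0.32, 0.34 and 0.14 in Arid1a cKO replicates 1 to 3, against -0.40, -0.11 and -0.20 in control replicates 1 to 3.

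Part of the spindle partner genes rose in Arid1a cKO. Of 36 tested genes of the spindle, centromere and midzone, 14 rose, 0 fell and 22 did not pass by edgeR, with a median log2 fold change of 0.44 and a range of -0.06 to 0.98. At an unadjusted p under 0.05, 29 were higher and 0 lower, and DESeq2 called 23 higher and 0 lower. Over all genes the shares higher were 1.5% by edgeR, 10% at an unadjusted edgeR p under 0.05 and 4.47% by DESeq2. The edgeR count of higher genes was 6, 3 and 8 without Arid1a cKO replicate 1, 2 or 3, 1, 7 and 1 without control replicate 1, 2 or 3, and 8 with the dental epithelium covariate. In the same order, calls over all genes in either direction were 532, 433, 165, 160, 352, 187 and 574, against 777 in the main fit. The examples with the smallest p were the microtubule regulator Psrc1 (log2 fold change 0.98, edgeR adjusted p = 0.0116), the kinase Plk1 (0.67, 0.0183), the chromosomal passenger protein Birc5 (0.56, 0.0203) and the kinase Aurka (0.63, 0.0215). Cenpe had 44.7, 47.9 and 44.7 CPM in Arid1a cKO and 28.9, 36.7 and 31.1 CPM in control. It rose 1.42-fold (log2 fold change 0.51, SE 0.0939, edgeR adjusted p = 0.0315), and the groups did not overlap. Mki67, the common marker of dividing cells, had 258, 265 and 242 CPM in Arid1a cKO and 179, 231 and 198 CPM in control, apart but not past the threshold (log2 fold change 0.33, edgeR adjusted p = 0.104). Cenpe kept its call without control replicate 2 (0.0258) and lost it without each other library (up to 0.103). Mki67 was named after its values were seen, and all these comparisons use the same 6 libraries as the kinesins.

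Of 23 light chains and cargo adaptors of transport kinesins, 0 passed by edgeR, with 5 higher and 5 lower at an unadjusted p under 0.05, and DESeq2 called 1 higher. The smallest p were those of the light chains Klc3 (log2 fold change 0.60, adjusted p = 0.097), Klc4 (0.28, 0.1) and Klc1 (-0.16, 0.131) and the adaptor Fez1 (0.26, 0.0974). Kifap3, the kinesin-2 accessory subunit (0.11, 0.344), and Kif1bp, which binds several kinesin motor domains (0.037, 0.768), did not pass. Of 30 dynein and dynactin genes, which form the minus-end transport motor, 0 passed by edgeR, 2 were higher and 3 lower at an unadjusted p under 0.05, and DESeq2 called 1 in each direction. Their median log2 fold change was -0.022. Over all genes, 10% were higher and 11.9% lower at an unadjusted edgeR p under 0.05. At an adjusted p under 0.05 edgeR called 1.5% higher and 2.46% lower, and DESeq2 called 4.47% higher and 6.01% lower. Of 16 tubulin genes, the track itself, Tubb2a fell (1.48-fold, edgeR adjusted p = 0.035) and 15 did not pass; without any 1 library other than control replicate 2, and with the epithelium covariate, 0 passed.

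Marker levels of the main tissues varied between libraries. The 18 dental epithelium markers summed to 3514, 1741 and 2496 CPM in Arid1a cKO replicates 1 to 3 and to 1537, 1615 and 5066 CPM in control replicates 1 to 3, and the 14 mesenchyme markers to between 27233 and 29859 CPM in Arid1a cKO and between 16934 and 39729 CPM in control. Markers of both tissues were present in every library. Of the epithelial markers 13 of 18 had a positive log2 fold change, with a median of 0.37, and 2 rose: Epcam (0.47, edgeR adjusted p = 0.0199) and Cldn4 (1.53, 0.0375). Of the mesenchymal markers 8 of 14 had a negative log2 fold change, 4 lay apart and lower in Arid1a cKO, and Pdgfrb fell (-0.44, edgeR adjusted p = 0.02). Over all genes tested 15.3% lay apart and lower, and edgeR called 1.5% higher and 2.46% lower. With the mean log2 level of the epithelial markers as a covariate, 3 mitotic kinesins (Kif2c, Kif4 and Kif22) passed and the median log2 fold change of the 12 was 0.50. Kif11, Kif18b, Kif20a and Kif14 were lost, at edgeR adjusted p of 0.0527, 0.052, 0.0869 and 0.0888. Over all genes 574 were called in that fit, against 777 without the covariate, and a covariate also leaves fewer degrees of freedom. Of the other kinesins Kifc5b and Kif26b passed in that fit. Of 10 markers of neutrophils and their precursors 6 were in the table, and Camp, Elane, Mpo and Ly6g were not among them. The 6 summed to 19.4 CPM in Arid1a cKO replicate 1 and to no more than 2.35 CPM in each of the 5 other libraries. Erythroid markers summed to 56.6 to 342 CPM in Arid1a cKO and 40.7 to 136 CPM in control, with overlap. The part of these cell types in the kinesin differences was not tested.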

How the data were processed

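Libraries of 75-cycle single-end reads were made from total RNA with RNA integrity numbers above 9.0, per the labels' protocols. The submitters' processing notes name STAR 2.6.1d, Partek and the build mm10. For annotation, library kit and strand setting, values were not given in the sources used here. The authors deposited estimated counts for 25703 genes (54% to 57.6% of values of a library within 0.01 of a whole number) and a normalized signal table of 21456 genes. In that deposited signal table each value equals the count plus 1 divided by a factor of its library, to within 0.000674%.

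Estimated counts were rounded. Genes were kept with filterByExpr (minimum count 10), which left 19613, scaled by TMM (factors 0.961 to 1.04) and tested with edgeR's quasi-likelihood F test (robust, two-sided, no covariate). Benjamini-Hochberg adjustment ran over all 19613. Each SE was obtained as |log2 fold change| over root F, and common biological variation came to 15.8%. CPM use TMM-scaled library sizes. Software was edgeR 4.0.16 and limma 3.58.1 in R 4.3.3, with DESeq2 1.42.0 as an alternative; tables and plots used matplotlib 3.10.9 under Python 3.11.15. No 2 libraries agreed within sampling noise (chi-square per degree of freedom 29.3 to 110 within groups and 50.6 to 136 between groups). Replicate numbers follow accession order and only name libraries.

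Members, gene lists and the rule for named genes (12 mitotic kinesins, the 10 other kinesins with the smallest p, up to 4 genes of each partner list) were chosen with earlier results of these data known. Exon lengths, overlaps and shared words come from GENCODE M21, and promoters from RefSeq (first entry of a gene). A planned search of protein sequences was not run. Alternatives are given in the closing section.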

Additional observations from a re-analysis of the deposited data

How the results depend on the processing

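Of the counts of calls, that of all genes (777) was 1905 with DESeq2, 574 with the dental epithelium markers as a covariate and 160 to 532 when 1 library was left out. The count of mitotic kinesins (7) was 3 with the dental epithelium markers as a covariate and 0 to 4 with 1 library left out, and the count of other kinesins (4) was 2 with that covariate, 2 on the authors' normalized values at a pseudocount of 5, 7 with DESeq2 and 0 to 1 with 1 library left out. These counts stayed within 1.5 times under RLE normalization, limma-voom, unrounded counts, no filter, a minimum of 1 CPM in every library and a pseudocount of 1. The median log2 fold change of mitotic kinesins (0.52) was 0.38 at a pseudocount of 5, which shrinks low genes by construction, and 0.45 to 0.60 with 1 library left out. That of other kinesins (-0.11) was -0.15 with the covariate and -0.19 to -0.13 with 1 library left out. No mitotic kinesin and no called kinesin changed sign in any fit. Members near 0 did: Kif21b (0.019) was -0.15 with the covariate, -0.0079 with limma-voom and -0.31 to 0.19 with 1 library left out. With 1 library left out Kif3a ranged from -0.038 to 0.14, Kif1c from -0.014 to 0.087, Kif3c from -0.069 to 0.014 and Kif17 from -0.24 to 0.15. The cause of these changes was not tested. A fit with 1 library left out also has fewer samples. Kif28, with 58 counts over 6 libraries, was below the filter on low counts. No paired analysis was possible because the labels speak of pairs without saying which libraries form them, and the sample names share only the number 2 between genotypes.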
